A study of Mus musculus with 6 samples.

Results

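The genes of intraflagellar transport (IFT), of its motors and of the BBSome were described in kidneys that lacked the transferrin receptor TfR1 in part of the nephron. They were 37 of the 24422 gene rows, chosen by symbol alone: names that begin with Ift and a number or consist of Bbs and a number, and the named genes Arl6, Bbip1, Lztfl1, Mkks, Ttc8, Ttc21b, Wdr19, Wdr35, Traf3ip1, Kif3a, Kif3b, Kif17, Dync2h1, Dync2li1 and Arl13b. By role they comprised 6 genes of IFT-A, 12 of IFT-B, 5 motor genes, 8 genes of the BBSome core, 5 BBSome-associated genes and the ciliary GTPase gene Arl13b. The symbol rule used no expression value, but the group was picked with earlier results of these data known.

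Poly-A RNA of whole kidneys of C57BL/6 mice was sequenced at postnatal day 60, with 3 Control (wild type) and 3 TfR1KO;KspCre (Tfr1f/f;KspCre) libraries, all from mice on an iron-sufficient diet of 220 ppm iron. In the second group, called knockout from here on, a Cre recombinase driven by the Ksp-cadherin (Cdh16) promoter deletes floxed exons of Tfrc, the TfR1 gene, in distal nephron epithelium, so that the remaining cells of each kidney keep the gene. The series text calls the libraries biological replicates, and the study's methods describe the wild-type controls of its RNA-seq as littermates, without naming the litter of a library. The comparison asks how the transcripts of the cilium machinery differ between these kidneys.

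Most tubular epithelial cells of the kidney carry a single primary cilium, a sensory projection that makes no protein of its own. IFT trains carry proteins along its microtubules: IFT-B trains move to the tip with kinesin-2 motors, and IFT-A returns them with the cytoplasmic dynein-2 motor. The BBSome, a coat-like complex recruited to membranes by the small GTPase ARL6, rides on these trains and moves membrane proteins out of the cilium, and inherited loss of its subunits causes Bardet-Biedl syndrome, in which the kidney is often affected.

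Total counts were 18036845 to 21001341 in the Control libraries and 11501053 to 19576330 in the knockout libraries, with knockout library 3 the shallowest. Whole-transcript counts of Tfrc did not separate the groups (2783, 2856 and 1032 in Control, 4368, 1713 and 530 in knockout), and Cdh16 had a log2 fold change of -0.26 ± 0.29 (SE), so neither gene checked the labels. Control library 2 stood apart in sex-linked transcripts, with 52 counts of Xist against 10458 to 23845 in the other 5 libraries. With edgeR's quasi-likelihood test at an adjusted p threshold of 0.05, 2612 of 15171 genes (17.2%) were called, 1008 lower and 1604 higher in knockout.

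All 37 genes passed the filter on low counts. Of these, 30 had a log2 fold change below 0 (knockout minus Control), against 48.5% of all genes tested, and their median was -0.29 against 0.02 over all genes tested. The range ran from -0.79 for Arl6 to 0.40 for Arl13b, so no gene of the group reached a log2 fold change of 1 in size, which 24% of all genes tested did. Only 1 of the 37 fell past the threshold in edgeR's quasi-likelihood test, the BBSome core gene Ttc8, where 6.64% of all genes tested were called lower. None was called higher, against 10.6% of all genes. At an unadjusted p under 0.05, 12 genes were lower and 0 higher, against 17.6% and 21% of all genes. In 18 of the 37, all knockout libraries lay below all Control libraries on the TMM-normalised scale, against 22.2% of all genes, and only Arl13b lay wholly above, against 23.8%.

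The sign of these small differences depended on the scaling. TMM, which assumes that most genes do not differ, put the median of all genes at 0.02, whereas scaling by library size alone put it at 0.29 and the median of the 37 genes at -0.02. The distance between both medians was nearly the same (-0.31 with TMM, -0.32 with library size alone). With library size alone 22 of the 37 genes were below 0. None was called by edgeR, where 3647 of 15171 genes were called (4.36% called lower). At an unadjusted p under 0.05, 1 was lower and 3 were higher, against 9.72% of all genes lower and 6623 genes in either direction. With that scaling the groups did not overlap in 4 genes that were lower (Arl6, Bbs1, Bbs5 and Ttc8) and 5 that were higher. The shares of all genes were 11.4% and 38.7%. Together the 37 genes took 0.0971% to 0.104% of the counts in Control libraries and 0.0958% to 0.104% in knockout libraries, which overlapped, while their summed CPM was 1083 to 1141 in Control and 844 to 1000.3 in knockout. Lower values below are therefore lower relative to the TMM reference, and fewer cells of a type cannot be told apart from less RNA per cell in whole kidney.

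**Figure D1:**
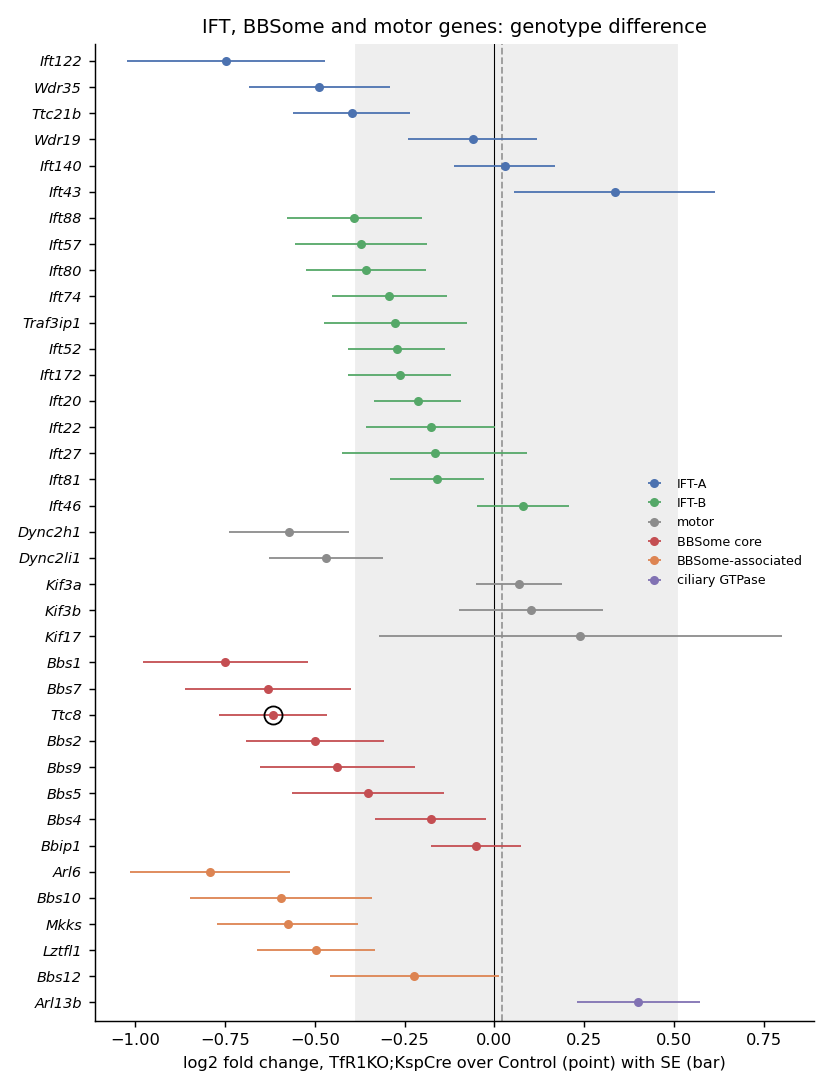
Log2 fold change (x axis, knockout over Control, points) with its standard error (bars) for each of the 37 genes, coloured by role; the dashed line is the median of all 15171 genes tested, the grey band spans their quartiles (-0.39 to 0.51), and the ring marks Ttc8, the gene with an adjusted p under 0.05. All 13 BBSome genes lie left of 0, and the kinesin genes and Arl13b lie right of it.

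RFX transcription factors bind X-box motifs, imperfect inverted repeats found upstream of many ciliary genes, and so the bases before the start sites were read. RefSeq (GRCm38.p6) held promoters for 33 of the 37 genes, 34 promoters in all; those of Dync2li1, Ift122, Ift80 and Ift81 were not read. In the 250 bases before the start, on both strands, the inverted repeat GTNNCCNNGGNNAC or its longer form GTNNCCNNNGGNNAC was found in 5 of 34 promoters (14.7%), against 2.11% of all 32851 promoters. The shorter motif GTTGCC, which overlaps many of these repeats, was found in 9 of 34 (26.5%) against 10.4% of all. Repeats with other spacers or other arms, and those that reach past the start, were not searched. The sequences below show the 3 promoters in which both motifs coincide, and that of Ttc8, the gene that passed the test, for comparison. They run 5′ to 3′ along the gene, and capitals mark the inverted repeat or the motif GTTGCC.
Lztfl1, chr9:123717626-123717875, minus strand: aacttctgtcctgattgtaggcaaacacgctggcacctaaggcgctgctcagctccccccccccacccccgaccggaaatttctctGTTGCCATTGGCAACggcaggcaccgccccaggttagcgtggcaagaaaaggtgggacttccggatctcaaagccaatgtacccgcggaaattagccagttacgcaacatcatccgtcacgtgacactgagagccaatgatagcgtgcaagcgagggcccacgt
Bbs7, chr3:36613390-36613639, minus strand: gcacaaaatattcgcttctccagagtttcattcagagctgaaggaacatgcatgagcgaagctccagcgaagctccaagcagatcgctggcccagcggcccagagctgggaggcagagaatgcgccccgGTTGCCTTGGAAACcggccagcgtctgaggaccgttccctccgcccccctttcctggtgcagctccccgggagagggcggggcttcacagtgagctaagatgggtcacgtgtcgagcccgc
Ift57, chr16:49699044-49699293, plus strand: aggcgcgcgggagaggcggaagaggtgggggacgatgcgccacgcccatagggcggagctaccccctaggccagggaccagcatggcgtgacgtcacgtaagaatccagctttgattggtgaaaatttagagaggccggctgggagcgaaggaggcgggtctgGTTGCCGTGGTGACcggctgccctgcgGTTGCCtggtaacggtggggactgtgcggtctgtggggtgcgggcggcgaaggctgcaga
Ttc8, chr12:98920324-98920573, plus strand: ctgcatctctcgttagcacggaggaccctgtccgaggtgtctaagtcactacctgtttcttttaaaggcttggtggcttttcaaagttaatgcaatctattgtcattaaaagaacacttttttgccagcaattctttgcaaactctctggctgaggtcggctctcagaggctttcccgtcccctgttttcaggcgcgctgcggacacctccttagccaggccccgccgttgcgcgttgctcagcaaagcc

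Lztfl1 carried the longer form, GTTGCCATTGGCAAC, with arms that are exact reverse complements, 164 bases before the start. Bbs7 carried GTTGCCTTGGAAAC 121 bases before its start, and Ift57 carried GTTGCCGTGGTGAC 87 bases before its own, with a further GTTGCC downstream. The other repeats of these forms were at 33 and 63 bases before the start of Ift22 and at 34 bases before that of Wdr19. The window of Ttc8 held neither motif, and those of Bbs1, Arl6 and Mkks held no repeat of these forms. The 5 genes with a repeat of these forms had log2 fold changes of -0.50 (Lztfl1), -0.63 (Bbs7), -0.37 (Ift57), -0.18 (Ift22) and -0.06 (Wdr19). None of them passed the test. Rfx3, which encodes an RFX factor of ciliated cells, had -0.35 ± 0.17 (log2 fold change ± SE) with edgeR adjusted p = 0.184, and Rfx2 0.46 ± 0.25 with edgeR adjusted p = 0.215.

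All 8 genes of the BBSome core had log2 fold changes below 0, with a median of -0.47 (-0.21 with library size alone, where Bbs4 and Bbip1 turned positive). In 7 of the 8, all but Bbip1, every knockout library lay below every Control library (22.2% of all genes), and 1 was called lower (6.64% of all genes). With library size alone only 3 of the 8 stayed separated on the lower side (Bbs1, Bbs5 and Ttc8), against 11.4% of all genes. Ttc8, which encodes the subunit BBS8 with its tetratricopeptide repeats (chr12:100158784-100221448, plus strand, mm9), was at 23.5, 26.7 and 27.1 CPM in Control libraries 1 to 3 and at 18.4, 16.7 and 15.3 CPM in knockout libraries 1 to 3. The groups did not overlap, and the lowest Control library was above the highest knockout library by more than the SD of either group (1.94 and 1.52 CPM). Its fold change was 0.652, or -0.62 ± 0.15 (SE) in log2 units, with edgeR adjusted p = 0.0399. With any Control library, knockout 2 or knockout 3 left out its log2 fold change was -0.70 to -0.56 with edgeR adjusted p-values of 0.087 to 0.133, and it passed only when knockout 1 was left out. Nearly all genes lost their calls in those 5 settings (0 to 73 called of all genes), so the lost call is not particular to Ttc8. With the Xist to Y-linked ratio as a covariate it was -0.59 (edgeR adjusted p = 0.127).

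Bbs1, whose protein contacts ARL6 on the membrane and which is mutated in many patients with Bardet-Biedl syndrome, had the lowest log2 fold change of the core. It was at 31.7, 32.7 and 34.9 CPM in Control and at 25.8, 14.0 and 19.2 CPM in knockout, without overlap and with knockout 2 the lowest. The log2 fold change was -0.75 ± 0.23 (SE, edgeR adjusted p = 0.0629). Bbs7 and Bbs2, whose proteins form a subcomplex with BBS9 early in assembly, were at 11.3 to 18.2 and 29.7 to 40.7 CPM in Control and at 8.66 to 10.1 and 21.4 to 28.1 CPM in knockout. Their log2 fold changes were -0.63 and -0.50, and that of Bbs9 was -0.44. None of these 3 subcomplex genes passed the test, and in each the groups did not overlap. Bbs5, which encodes a phosphoinositide-binding subunit, had a log2 fold change of -0.35 and Bbs4, whose protein links the complex to centriolar satellites, one of -0.18.

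Bbip1, the smallest subunit of the complex, behaved unlike the others in the plain values. It was at 29.5, 32.1 and 33.4 CPM in Control and at 32.0, 28.9 and 30.7 CPM in knockout, and the groups overlapped. Its log2 fold change of -0.05 ± 0.13 (SE) became 0.02 with upper quartile scaling and 0.22 with library size alone. In the mm9 gene models 22.4% of its exon bases lie opposite exons of Pdcd4, and as the strand setting of the counting is not given in the sources used here, reads of both genes cannot be told apart there.

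The 5 BBSome-associated genes were also all below 0, with a median of -0.58, and 4 of 5 had no overlap between groups, against 22.2% of all genes. With library size alone only Arl6 of the 5 stayed separated on the lower side, and Bbs12 turned positive (0.06). Arl6, the GTPase that recruits the BBSome to membranes, had the lowest log2 fold change of all 37 genes. It was at 30.2, 29.5 and 28.3 CPM in Control, a narrow spread (SD 0.92), and at 22.1, 16.2 and 12.4 CPM in knockout (SD 4.90). Every knockout library was below every Control library, with a log2 difference of -0.79 ± 0.22 (SE) and an edgeR adjusted p of 0.0524 that narrowly missed the threshold. It passed with DESeq2 size factors (edgeR adjusted p = 0.0462) and, at a log2 fold change of -1.04, when knockout 1 was left out (edgeR adjusted p = 0.00839).

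Mkks, Bbs10 and Bbs12 encode chaperonin-like proteins that assemble the BBSome. Mkks, the most abundant of the associated genes by CPM, was at 62.5, 59.7 and 53.7 CPM in Control and at 50.6, 31.8 and 35.5 CPM in knockout. Knockout 1 lay closest to Control and the groups did not overlap (log2 fold change -0.58 ± 0.20 SE, edgeR adjusted p = 0.0791). Bbs10 had a log2 fold change of -0.59 at only 48 to 117 counts a library. Bbs12 was at 5.82, 7.23 and 5.70 CPM in Control and at 5.15, 5.77 and 5.13 CPM in knockout, with overlap and a log2 fold change of -0.22 ± 0.24 (SE). Lztfl1, which restrains entry of the BBSome into the cilium, came to -0.50 ± 0.16 (log2 fold change ± SE) with edgeR adjusted p = 0.0737, and its knockout values of 22.8 to 30.2 CPM all lay below its Control values of 34.0 to 42.6 CPM.

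Across core and associated genes, 13 of 13 were below 0 (10 of 13 with library size alone, 12 of 13 with upper quartile scaling), 11 had no overlap between groups against 22.2% of all genes, 7 had an unadjusted p under 0.05 against 17.6%, and 1 was called. With library size alone only 4 of the 13 separated on the lower side and 1 on the higher, against 11.4% and 38.7% of all genes. None of the 13 was called by edgeR in that setting, where 4.36% of all genes were called lower.

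**Figure D2:**
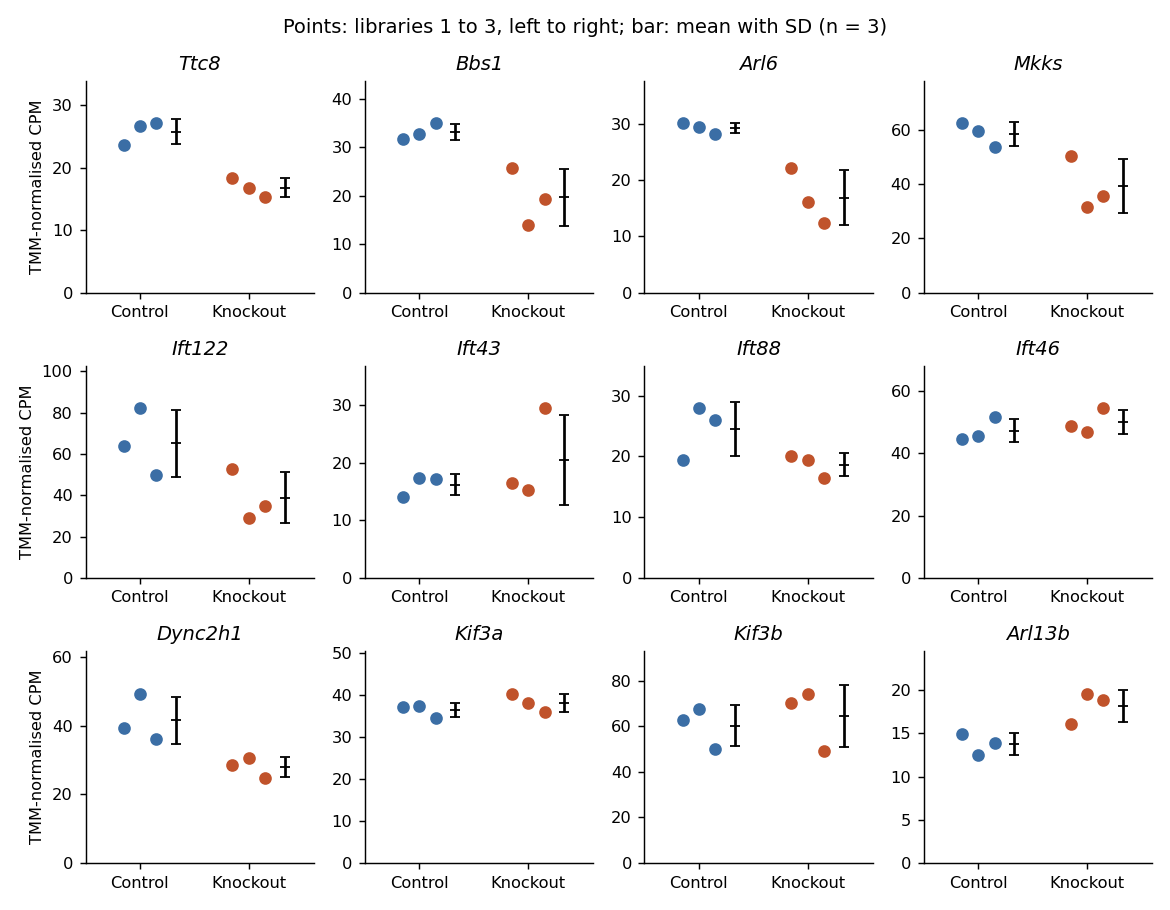
TMM-normalised CPM (y axis, from 0) of 12 genes in each library; points are libraries 1 to 3 from left to right in Control (blue) and knockout (orange), and bars give the mean with SD (n = 3). The groups do not overlap in Ttc8, Bbs1, Arl6, Mkks, Dync2h1 and Arl13b, and overlap in Ift122, Ift43, Ift88, Ift46, Kif3a and Kif3b.

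The 6 IFT-A genes were mixed, with a median log2 fold change of -0.23 (-0.16 with upper quartile scaling, 0.04 with library size alone) and 4 of 6 below 0. Ift122, a core subunit, was both the most abundant by CPM and the lowest in log2 fold change. It was at 63.8, 82.0 and 49.8 CPM in Control and at 52.7, 28.9 and 35.01 CPM in knockout. Knockout 1 exceeded Control 3, so the groups overlapped (log2 fold change -0.75 ± 0.28 SE, edgeR adjusted p = 0.0948). Wdr35 and Ttc21b, which encode IFT121 and IFT139, were the 2 genes of IFT-A without overlap, where 22.2% of all genes were so on the lower side, and with library size alone no IFT-A or IFT-B gene stayed separated on the lower side. Their log2 fold changes were -0.49 ± 0.20 and -0.40 ± 0.16 (SE), and neither passed the test.

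In the other 3 subunits the groups overlapped and the log2 fold change lay on either side of 0. Ift140, also a core subunit, was at 26.9 to 31.0 CPM in Control and 26.4 to 32.4 CPM in knockout, with a log2 fold change of 0.03 that turned negative without Control 2, without knockout 3 and with the Xist to Y-linked covariate. Wdr19 (IFT144) was at -0.06, with the opposite sign under upper quartile scaling, library size alone or without knockout 3. Ift43, which the mm9 annotation lists as 1700019E19Rik, was at 14.1, 17.3 and 17.1 CPM in Control and at 16.5, 15.3 and 29.4 CPM in knockout. Its positive log2 fold change of 0.34 ± 0.28 (SE) rested on knockout 3 and was -0.02 without that library.

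The 12 IFT-B genes lay closer together, from -0.39 to 0.08: 11 were below 0 with a median of -0.27, and none had an unadjusted p under 0.05. With library size alone that median was -0.002, and Ift20, Ift22, Ift27 and Ift81 turned positive. Ift88, whose hypomorphic allele causes polycystic kidneys in the orpk mouse, had the lowest log2 fold change, -0.39 ± 0.19 (SE, edgeR adjusted p = 0.171). It was at 19.5, 27.9 and 26.1 CPM in Control and at 20.1, 19.5 and 16.5 CPM in knockout. Control 1 lay within the knockout values, so the groups overlapped. Ift172, which encodes a large subunit of the peripheral subcomplex, was the most abundant IFT-B gene by CPM. It was at 65.4, 56.8 and 64.4 CPM in Control and at 58.8, 45.5 and 51.2 CPM in knockout. The groups again overlapped (log2 fold change -0.26 ± 0.14 SE).

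Only Ift80, Ift52 and Ift20 separated the groups within IFT-B, where 22.2% of all genes did so on the lower side. Ift80 and Ift20 encode parts of the peripheral subcomplex, and IFT20 also sits at the Golgi. Ift80 was at 26.8 to 30.7 CPM in Control and 18.5 to 26.0 CPM in knockout (log2 fold change -0.36). Ift52, a core subunit, was at 44.5 to 55.1 and 39.6 to 44.5 CPM, with knockout 1 and Control 1 almost equal at 44.51 and 44.53 CPM (log2 fold change -0.27). Ift20 was at 42.6 to 45.3 and 34.6 to 40.6 CPM (log2 fold change -0.21). The smallest edgeR adjusted p of an IFT-B gene was that of Ift80, 0.161.

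The remaining IFT-B genes overlapped between groups. Ift57 and Traf3ip1 (IFT54) of the peripheral subcomplex were at log2 fold changes of -0.37 and -0.28. Ift74 and Ift81, whose proteins form a tubulin-binding pair, were at -0.29 and -0.16. The small GTPase genes Ift22 and Ift27 were at -0.18 and -0.17, and Ift27, which links the train to BBSome exit, turned to 0.01 without knockout 2. Ift46, a core subunit, was the exception in sign, at 44.7, 45.6 and 51.6 CPM in Control and 48.8, 46.9 and 54.4 CPM in knockout. Its log2 fold change of 0.08 ± 0.13 (SE) was smaller than its standard error.

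The motor genes had both signs, with a median of 0.07 (0.34 with library size alone and -0.18 without Kif17). The genes of the return motor dynein-2, Dync2h1 (heavy chain) and Dync2li1 (light intermediate chain), had no overlap between groups (22.2% of all genes on the lower side), whereas the kinesin genes did overlap. This depended on the scaling: with library size alone neither dynein-2 gene stayed separated, and Kif3a separated upward. Dync2h1 was at 39.3, 49.3 and 36.0 CPM in Control and at 28.7, 30.5 and 24.7 CPM in knockout. The difference came to -0.57 ± 0.17 (log2 fold change ± SE), with an edgeR adjusted p of 0.0567 that missed the threshold. Dync2li1 was at 38.6 to 45.1 CPM in Control and 27.6 to 36.7 CPM in knockout, or -0.47 ± 0.16 in log2 fold change ± SE, with edgeR adjusted p = 0.0782.

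Kif3a and Kif3b encode the motor subunits of heterotrimeric kinesin-2, which drives trains towards the tip. Kif3a was at 34.5 to 37.6 CPM in Control and 35.9 to 40.4 CPM in knockout, a log2 fold change of 0.07 ± 0.12 (SE). Kif3b, the most abundant motor gene by CPM, was at 62.8, 67.6 and 50.1 CPM in Control and at 70.1, 74.4 and 49.2 CPM in knockout. Library 3 was the lowest of each group, and the log2 fold change of 0.10 ± 0.20 (SE) turned to -0.02 without Control 3 and to -0.01 without knockout 2. Kif17, the homodimeric kinesin-2 of some specialised cilia, had only 5, 9 and 10 counts in Control and 15, 12 and 3 in knockout, or 0.249, 0.529 and 0.600 CPM against 0.736, 0.602 and 0.230 CPM. At this depth its log2 fold change of 0.24 ± 0.56 (SE) showed no detectable difference.

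Arl13b, a GTPase gene whose protein is a common marker of the ciliary membrane, was the single gene with all knockout libraries above all Control libraries. It was at 14.98, 12.5 and 13.9 CPM in Control and at 16.1, 19.6 and 18.8 CPM in knockout. Its log2 fold change was 0.40 ± 0.17 (SE), which did not pass the test (edgeR adjusted p = 0.134). Such a separation was met in 23.8% of all genes.

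**Figure D3:**
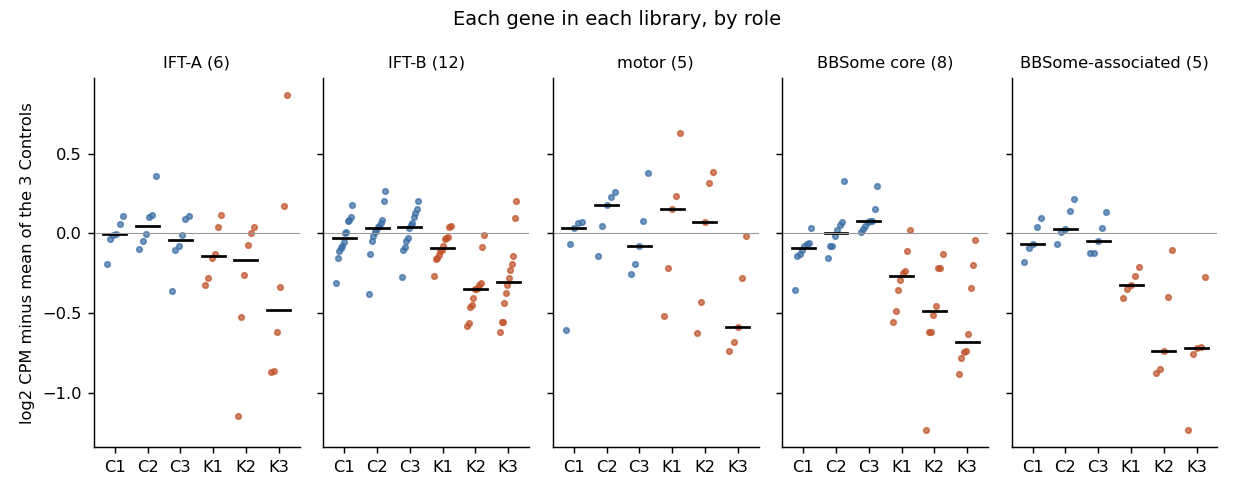
Log2 CPM of each gene (points) minus its mean over the 3 Control libraries (y axis), by role and library (C1 to C3 Control, K1 to K3 knockout), with the median of each role as a bar. In the BBSome core the medians are -0.27, -0.48 and -0.68 in knockout 1, 2 and 3, and in IFT-B they are -0.09, -0.35 and -0.30.

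The knockout libraries did not deviate equally. Relative to the mean of the Control libraries, 28, 31 and 32 of the 37 genes were below 0 in knockout 1, 2 and 3, with medians of -0.16, -0.35 and -0.44 on the log2 scale. The motors showed the widest spread, at medians of 0.15, 0.07 and -0.58, and the BBSome-associated genes were at -0.32, -0.74 and -0.72. In each of the 3 libraries the medians of both BBSome groups were lower than that of IFT-B. Without knockout 1, 9 of the 36 genes then tested were called lower (Arl6, Bbs1, Bbs2, Dync2li1, Ift122, Ift57, Mkks, Ttc8 and Wdr35), but so were 16.4% of all genes, and the median of the genes was -0.42. None was called by edgeR when any Control library, knockout 2 or knockout 3 was left out, with 4 to 8 lower at an unadjusted p under 0.05. In those same settings 0, 0, 0, 73 and 2 of all genes were called, and 11.6% to 14.2% were lower at an unadjusted p under 0.05. DESeq2's Wald test also called 9 lower, against 15% of all genes: Arl6, Bbs1, Bbs7, Dync2h1, Dync2li1, Ift122, Lztfl1, Mkks and Ttc8.

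Ratios of counts within a library do not depend on the scaling, and several were read after the values above had been seen, as a description with no test. Dync2h1 over Kif3a was 1.06, 1.31 and 1.05 in Control and 0.710, 0.799 and 0.687 in knockout, without overlap, with a mean of 0.732 ± 0.0594 against 1.14 ± 0.151 (SD, n = 3). Dync2li1 over Kif3a was 1.20, 1.03 and 1.31 against 0.909, 0.723 and 0.791. Both ratios were lower in all knockout libraries, which describes these 2 dynein-2 genes and not the whole motor: of the intermediate chain genes, Wdr34 had a log2 fold change of -0.46 without overlap and Wdr60 one of -0.0002 with overlap. The summed BBSome core counts over those of IFT-B were 0.441, 0.460 and 0.493 in Control and 0.411, 0.412 and 0.386 in knockout, and the associated genes over IFT-B were 0.357, 0.363 and 0.331 against 0.302, 0.275 and 0.239. Both BBSome ratios separated the groups, whereas IFT-A over IFT-B did not, at 0.428 to 0.521 against 0.435 to 0.448. Ift122 over Ift140, both core IFT-A genes, ranged from 1.61 to 3.05 in Control and from 0.975 to 2.00 in knockout, with overlap. Arl13b over Arl6 set the highest log2 fold change of the group against the lowest, so its separation follows from that choice. The ratio was 0.422 to 0.497 in Control and 0.727 to 1.52 in knockout.

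**Figure D4:**
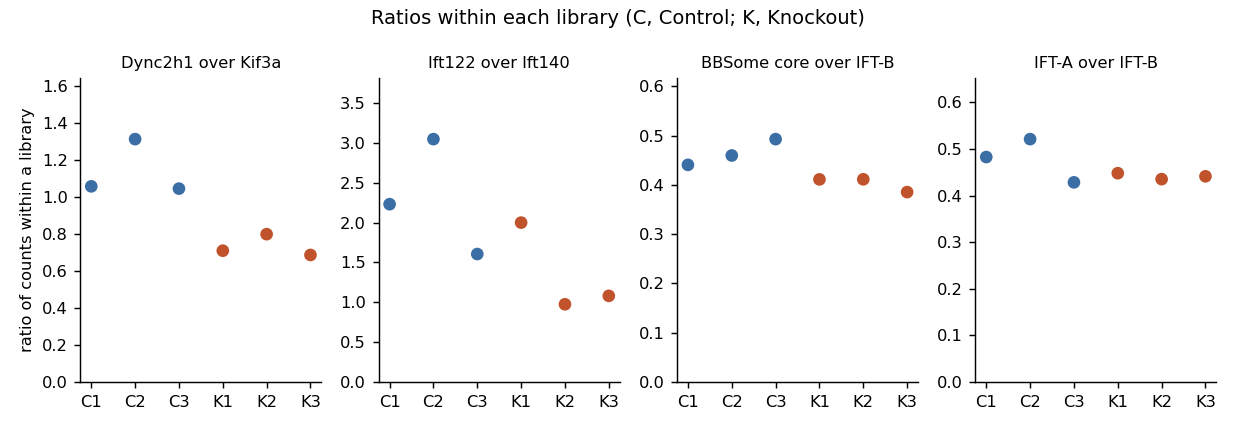
Ratio of counts within each library (y axes, from 0) for Dync2h1 over Kif3a, Ift122 over Ift140, BBSome core over IFT-B and IFT-A over IFT-B, with Control in blue and knockout in orange. Knockout libraries lie below all Control libraries in the first and the third panel and overlap with them in the others.

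Levels between genes were compared per kilobase of exon in the mm9 gene models. Each length joined the exons of all annotated transcripts of a gene, 1324 bases for Dync2li1 (1 transcript) and 16161 bases for Dync2h1 (8 transcripts). Such a length can exceed that of the transcripts present, so the ranking is approximate. Dync2li1 was the highest, at 32.3 ± 2.74 CPM per kb in Control and 23.3 ± 3.81 in knockout (SD, n = 3), ahead of Ift20 at 28.8 and Ift22 at 22.8 in Control. Kif17 was the lowest at 0.1002 CPM per kb in Control. Dync2h1 and Dync2li1, which belong to 1 motor, lay far apart at 2.57 ± 0.428 and 32.3 ± 2.74. Among BBSome genes Mkks reached 18.2 ± 1.40 and Arl6 14.0 ± 0.439, whereas Ttc8 was at 9.37 ± 0.706, Bbs1 at 5.93 ± 0.298 and Bbs7 at 3.73 ± 0.869. Arl13b was at 2.52 ± 0.231 in Control and 3.33 ± 0.339 in knockout.

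Other cilium lists were placed beside these genes. Of 13 tested further IFT and motor parts, such as the dynein-2 intermediate chains and Kifap3, 12 were below 0 with a median of -0.22, 0 were called lower and 1 was called higher, Dynll1, a dynein light chain with many uses outside cilia (log2 fold change 0.68, edgeR adjusted p = 0.0396). Of 17 transition zone genes, which form the gate at the base of the cilium, 13 were below 0 with a median of -0.20, and edgeR called none (2 lower at an unadjusted p under 0.05). Of 11 genes for ciliary vesicle and Rab trafficking, 10 were below 0 with a median of -0.20. In that list 1 gene was called lower and none higher: Rab3ip, which encodes the Rab8 activator Rabin8 of BBSome-dependent membrane delivery. It was at 285, 314 and 308 CPM in Control and 217, 131 and 169 CPM in knockout, which is -0.81 ± 0.21 in log2 fold change ± SE, with edgeR adjusted p = 0.0451. Of 14 centriole and ciliogenesis genes, the median was -0.06, with 0 called lower and 1 higher, Tuba1a, an alpha-tubulin gene found in many cell types (log2 fold change 1.86, edgeR adjusted p = 0.0297). Of all genes tested, 6.64% were called lower and 10.6% higher.

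Markers of several kidney cell types differed with the genotype and others overlapped, and they are given as summed CPM of each list. Proximal tubule markers (10 genes, 8 called lower) were at 11728 to 15209 CPM in Control and 2181 to 6406 CPM in knockout. Thick ascending limb markers (7 genes, none called and 2 lower at an unadjusted p under 0.05) were at 5492 to 12000 against 947 to 7067 CPM, which overlapped. The other distal lists overlapped too: distal convoluted tubule markers were at 2389 to 3578 against 446 to 2626 CPM (5 genes, 1 called lower), principal cell markers at 1048 to 1427 against 496 to 1754 CPM (6 genes) and intercalated cell markers at 335 to 421 against 169 to 537 CPM (5 genes). None of the principal or intercalated cell markers was called by edgeR, with 0 and 1 lower at an unadjusted p under 0.05. Macrophage markers (8 genes, 7 called higher) were at 188 to 215 against 596 to 2141 CPM, and fibroblast and myofibroblast markers (8 genes, 4 called higher) were at 361 to 689 against 1060 to 4100 CPM. Lymphocyte markers (7 genes, 3 called higher) were at 5.29 to 8.64 against 16.2 to 57.3 CPM, and endothelial markers (6 genes, 1 called higher) were at 405 to 647 against 700 to 804 CPM, both without overlap. Podocyte markers (5 genes, 1 called higher) overlapped at 526 to 651 and 638 to 942 CPM. General epithelial markers (10 genes, 3 called higher) overlapped at 2237 to 2686 and 2147 to 3069 CPM, and no list gene was at 0 in all libraries. Knockout 1 was nearest to Control in proximal tubule, thick ascending limb, fibroblast and macrophage sums and in the median of the 37 genes. The part of this composition in the values of the cilium genes was not tested.

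**Figure D5:**
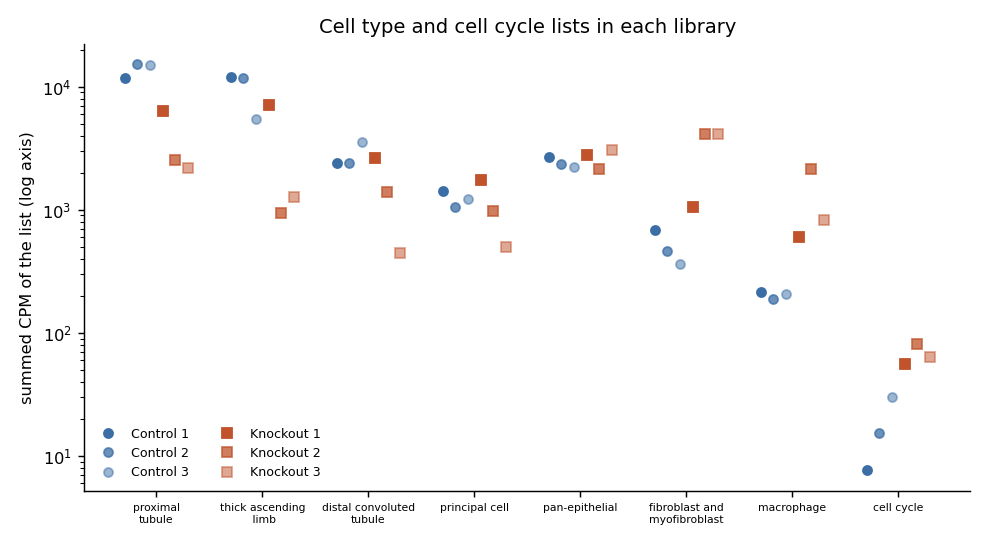
Summed TMM-normalised CPM (y axis, log scale) of 8 marker lists in each library, with circles for Control and squares for knockout, shaded by library number. Proximal tubule sums are lower and macrophage, fibroblast and cell cycle sums higher in all 3 knockout libraries, while general epithelial sums overlap.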

How the data were processed

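RNA-seq of 6 whole kidneys was used. Per the study's methods and the submitters' processing notes, the authors called reads with CASAVA 1.8.2, trimmed them with Trimmomatic, aligned them to mm9 with TopHat2 2.0.11 and counted them per gene with HTSeq; annotation and strand setting are not given in the sources used here. The deposited values were raw counts, 1 table per group, and columns were matched to samples by their names. Groups came from the sample titles.

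Counts were tested with edgeR 4.0.16 (R 4.3.3): filterByExpr (minimum count 10, minimum total 15), TMM, glmQLFit and glmQLFTest over all 6 libraries without covariates, Benjamini-Hochberg over 15171 genes, threshold 0.05. CPM is TMM-normalised, and log2 values per library used a prior count of 2. The standard error is the log2 fold change divided by the square root of F. Alternatives used DESeq2 1.42.0 and limma 3.58.1, other scalings, filters and covariates, and each library left out. Replicates differed by more than sampling noise (chi-square per degree of freedom 52.9 to 125).

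Every gene of the group was named, with values per library for called genes and, in each role, for the highest mean CPM and the lowest and highest log2 fold change; others with such values, and the members of other lists named, were chosen after their values were seen. The genes and lists were chosen with earlier results of these data known. Gene positions and lengths came from GENCODE M1 (mm9) and promoters from RefSeq (GRCm38.p6). The depth of 11501053 to 21001341 counts per library limits Kif17 most.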

Additional observations from a re-analysis of the deposited data

How the results depend on the processing

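The number of all genes called (2612) was 4882 with DESeq2's Wald test, 5034 at an adjusted p under 0.1, 0 with the Xist to Y-linked ratio as a covariate, and 0 to 5332 with 1 library left out. The number of the 37 genes called lower (1, against 6.64% of all genes) was 2 with DESeq2 size factors (7.55%) and 9 with the Wald test (15%). At an adjusted p under 0.1 it was 9, where 5034 of all genes were called in either direction. It was 0 with library size alone (4.36%), 0 with the covariate (0%) and 0 to 9 with 1 library left out (0% to 16.4%). In these last settings 1, 5 and at least 4 of them were lower at an unadjusted p under 0.05 in edgeR. The shares of all genes there were 9.72%, 12.5% and 11.6% to 22.2%. With the replicate number as a block, edgeR called 0 of all genes and 0 of the 37. At an unadjusted p under 0.05, 5432 of all genes passed with the block, as against 5862 without it. By that measure 10 of the 37 were lower with the block, against 17.1% of all genes. Same-numbered libraries deviated together with correlations of only -0.13, 0.01 and 0.21, so the numbers are not shown to pair them.

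With library size alone the median log2 fold change was -0.024 over the 37 genes, 0.036 in IFT-A, -0.0017 in IFT-B, 0.34 in motors and -0.21 in the BBSome core, and the values of single genes that turned sign were 0.22 (Bbip1), 0.055 (Bbs12), 0.090 (Bbs4), 0.056 (Ift20), 0.088 (Ift22), 0.092 (Ift27), 0.11 (Ift81) and 0.20 (Wdr19). Upper quartile scaling gave -0.16 in IFT-A, 0.023 for Bbip1 and 0.011 for Wdr19, requiring 10 counts in every library, which removes Kif17, gave -0.18 in motors, and the covariate gave -0.013 for Ift140.

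With 1 library left out, the medians were -0.42 to -0.25 over the 37 genes, -0.31 to -0.17 in IFT-A, -0.36 to -0.20 in IFT-B, -0.29 to 0.11 in motors, -0.59 to -0.39 in the BBSome core and -0.76 to -0.51 in associated genes. Genes that turned sign ranged from -0.045 to 0.094 (Ift140), -0.34 to 0.0079 (Ift27), -0.021 to 0.50 (Ift43), -0.095 to 0.55 (Kif17), -0.021 to 0.26 (Kif3b) and -0.17 to 0.060 (Wdr19). The cause was not tested. Counting each gene once per setting, 346 values kept their direction and side of the threshold, 9 newly passed it, 3 no longer passed and 11 turned sign. With a library left out these counts were 200, 8, 5 and 8.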

Other observations

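Foxj1, the master regulator of motile cilia, was nearly absent from Control kidneys and higher in knockout kidneys: 8, 2 and 5 counts (0.398, 0.118 and 0.3002 CPM) against 89, 165 and 61 counts (4.37, 8.28 and 4.67 CPM), which is 4.36 ± 0.52 in log2 fold change ± SE, with edgeR adjusted p = 0.0271. All 3 knockout libraries were higher. Of 16 listed genes of motile cilia 10 were tested, and the 9 besides Foxj1 had 5 log2 fold changes below and 4 above 0. Dnaic2, an axonemal dynein intermediate chain (1.77), and Tppp3 (1.63) also had all knockout libraries above all Control libraries, and neither passed the test (edgeR adjusted p = 0.0653 and 0.125). With Foxj1 they were the 3 genes higher at an unadjusted p under 0.05, and 1 was lower, against 21% and 17.6% of all genes. Apart from Foxj1 the 1 gene called was Dnah11, an axonemal dynein heavy chain, which was at 4.68 to 6.27 CPM in Control and at 0.153 to 1.67 CPM in knockout (log2 fold change -2.55 ± 0.66 SE, edgeR adjusted p = 0.0445).

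Hedgehog signalling passes through the primary cilium in mammals. Of 11 tested genes of that pathway, 1 was called, where 17.2% of all genes were: Sufu, the inhibitor that holds GLI factors in the cytoplasm, was at 75.1 to 90.3 CPM in Control and at 40.1 to 61.2 CPM in knockout (log2 fold change -0.76 ± 0.19 SE, edgeR adjusted p = 0.0422). Gli1, a target of the pathway, was uneven between libraries, at 2.69, 1.41 and 2.22 CPM in Control and at 2.503, 18.4 and 5.82 CPM in knockout. It was highest in knockout 2 and did not pass the test (edgeR adjusted p = 0.0834). Ptch1, also a target, was at 16.1 to 32.9 CPM in Control and 17.2 to 19.9 CPM in knockout, and Smo, the signal transducer, had a log2 fold change of 0.14 ± 0.13 (SE).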
